A study of Zea mays with 6 samples.

Results

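Liguleless1 (LG1, GRMZM2G036297) and liguleless2 (LG2, GRMZM2G060216) are the 2 maize genes described here, out of 110149 gene features in the transcript table. They were taken by their gene identifiers, with every histone-mark region whose next gene is one of them. That gave 5 of 43734 regions of H3K9ac (acetylation of lysine 9 on histone H3) and 3 of 32908 regions of H3K4me3 (trimethylation of lysine 4 on histone H3). LG1 had 1 region of each mark, and LG2 had 4 H3K9ac regions and 2 H3K4me3 regions.

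The ligule is a fringe of tissue at the boundary between the blade and the sheath of a grass leaf, and beside it lie the auricles, the hinge wedges that set the blade angle. LG1 encodes a transcription factor of the SBP-box family, and lg1 mutant leaves lack ligule and auricles. LG2 encodes a transcription factor of the bZIP class, and lg2 mutants form the boundary late and imprecisely. Both H3K9ac and H3K4me3 are typically found around the starts of transcribed genes.

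Wild-type plants of the inbred line B73 supplied both zones of leaf 3, compared by poly(A) RNA sequencing and by chromatin immunoprecipitation with sequencing (ChIP-seq). For the maturing zone, 4 cm were taken at the middle of the lit blade. For the base, the bottom 1 to 2 cm of those leaves were taken, which light did not reach, and the labels do not say where the ligule lay relative to that piece. Plants were 13 to 14 days old, with 6 pooled per RNA replicate and 10 per chromatin replicate, no treatment and no mutant. The transcript table holds 2 libraries per zone, named A and B, and each ChIP table holds 1 average per zone made by the authors, without replicate values.

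The RNA libraries held 18325106 to 50657759 exon reads. Zone labels were checked against marker genes: the photosynthetic genes PEPC, PPDK, NADP-ME and PEPCK had 140927 to 1697314 reads per library in the maturing zone and 31 to 4437 in the base. The replication helicase genes MCM6 and MCM7 had 1 to 5 reads per library in the maturing zone and 832 to 4775 in the base. Base libraries A and B differed in genes of the KNOX class, homeobox regulators of meristems: KN1, GN1, LG3 and LG4 together had 435 reads in base A and 17 in base B. The difference was not confined to these genes. In base A and B, PEPCK had 566 and 31 reads, NADP-ME 1431 and 136, and MCM6 4775 and 832. PEPC (613 and 302), PPDK (4437 and 2127) and MCM7 (4350 and 1142) differed less. Base A also held more exon reads in all, 44243772 against 24205348. In bulk tissue, fewer cells of a type and less RNA per cell cannot be told apart.

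LG1 transcripts were nearly absent from the maturing zone and present at a low level in the base. In the maturing zone LG1 had 0 reads in library A and 4 in library B, against 143 in A and 133 in B of the base. As CPM (reads scaled to library depth, here with edgeR's TMM factors), this was 0 and 0.395 CPM in the maturing zone and 1.94 and 4.05 CPM in the base. The zones did not overlap, and the means were 0.197 ± 0.279 CPM in the maturing zone and 3.0 ± 1.49 CPM in the base (SD, n = 2 libraries each). The 0 reads in maturing zone A allow up to 3 reads, or 0.0741 TMM-scaled CPM, in that library. LG1 passed the count filter of the edgeR test through its base reads alone and so had to come out lower. Its direction and the lack of overlap are therefore no separate result.

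By the deposited RPKM (reads per kilobase of exon, scaled to library depth), 6.67% of the 26787 genes tested had a lower mean level than LG1 in the maturing zone and 30.7% in the base. Pooled over libraries, the TMM-scaled LG1 level was 32.8-fold lower in the maturing zone, with a 95% exact binomial interval of 12.7 to 121. That interval covers counting error only and leaves out the spread between libraries. With that spread, edgeR's quasi-likelihood test gave a log2 difference, maturing zone minus base, of -4.38 ± 1.76 (SE, n = 2 libraries per zone) and an adjusted p of 0.116, so LG1 was not called at 0.05.

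The LG1 call turned on single libraries. The edgeR adjusted p was 0.017 without base A (log2 difference -4.84) and 0.00864 without maturing zone B, where the only maturing zone library left has 0 reads. It was 0.0721 without base B (-3.81) and 0.289 without maturing zone A (-2.87). With all 4 libraries it was 0.0146 under library totals and 0.00225 without a count filter, and DESeq2's test gave an adjusted p of 0.0101. The TMM-scaled edgeR test called 15.8% of all genes tested lower. Scaling by library totals raised that share to 31.0% and DESeq2 to 20.2%, so the LG1 calls there do not set it apart. With the count filter dropped, 13.5% of 44892 genes were called lower. In the authors' deposited table LG1 had a 22.11-fold lower level in the maturing zone with an FDR of 0.0283.

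LG2 transcripts were found in both zones. In the maturing zone LG2 had 450 reads in library A and 173 in library B, against 240 in A and 188 in B of the base. This was 11.1 and 17.1 TMM-scaled CPM in the maturing zone and 3.26 and 5.73 CPM in the base. The zones did not overlap, with means of 14.1 ± 4.2 CPM in the maturing zone and 4.50 ± 1.75 CPM in the base (SD, n = 2 libraries each). By deposited RPKM, 48.5% of the genes tested had a lower mean level than LG2 in the maturing zone and 24.4% in the base.

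The LG2 log2 difference was 1.65 ± 0.62 (SE, n = 2 libraries per zone), with an edgeR adjusted p of 0.101, and LG2 was not called. The size depended on the scaling: under library totals it was 0.47 ± 0.78 with an edgeR adjusted p of 0.651. That scaling moved the median of all genes by -1.14 on the log2 scale, and relative to the median of all genes LG2 stood at 1.75 under library totals and 1.78 under TMM. Relative to the median LG1 stood at -4.36 under library totals and -4.24 under TMM. In the authors' deposited table LG2 was 2.88-fold higher in the maturing zone with an FDR of 0.536.

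For orientation, 29.2% of all genes tested were called by edgeR, against 0 of these 2 genes. Maturing zone libraries lay below base libraries without overlap, as for LG1, in 36.9% of genes tested, and above them without overlap, as for LG2, in 30.8%. The unadjusted edgeR p was 0.051 for LG1 and 0.0419 for LG2.

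**Figure D1:**
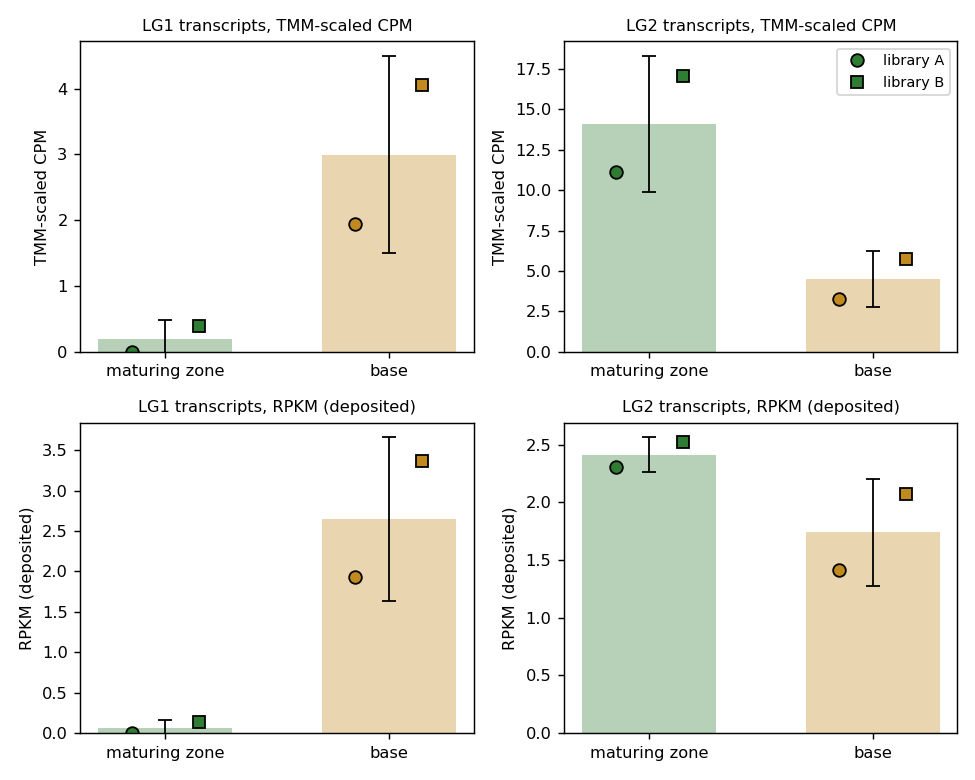
Transcript levels of LG1 (left) and LG2 (right) per library, as TMM-scaled CPM (top) and as the authors' RPKM (bottom); bars are means, error bars are SD over 2 libraries, circles are library A and squares library B. LG1 lies at 0 and 0.395 CPM in the maturing zone against 1.94 and 4.05 CPM in the base, and LG2 lies higher in the maturing zone on both scales.

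Levels of different genes can be compared only per length, so the deposited RPKM were set side by side. LG2 stood at 2.31 and 2.52 RPKM in A and B of the maturing zone and at 1.41 and 2.07 RPKM in A and B of the base. LG1 had 0 and 0.13 RPKM in the maturing zone and 1.93 and 3.36 RPKM in the base. In the base the LG2 level was 0.731 and 0.616 of the LG1 level in libraries A and B, so LG1 was the higher of the pair in both. In maturing zone B it was 19.4 times the LG1 level, and in maturing zone A no ratio exists because LG1 is at 0. The order of the pair was thus opposite in the zones, in every library. The fitted log2 difference of LG1 minus that of LG2 was -6.02, a value given without a test.

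Both genes were somewhat higher in base B than in base A, by 2.09 times for LG1 and 1.76 times for LG2 in TMM-scaled CPM. The summed TMM-scaled CPM of these 4 KNOX genes ran the other way, with 5.91 in base A and 0.518 in base B. In the maturing zone that sum was 0.247 and 0.690 in libraries A and B. LG1 stood there at 0 and 0.395 CPM and LG2 at 11.1 and 17.1 CPM, so both genes were higher in B in that zone too. Over 26787 genes the log2 difference of A minus B correlated between the zones (r = 0.803). Whether the KNOX difference between the base libraries bears on the LG1 or LG2 values was not tested.

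At LG1 both histone marks were lower in the maturing zone. The H3K9ac region on chromosome 2 from 4268231 to 4268894 (B73 RefGen_v3) had 19.33 normalized reads in the maturing zone and 179.29 in the base. In the authors' deposited table that is a 9.28-fold loss with an FDR of 2.02e-36. The H3K4me3 region from 4267896 to 4268660 had 33.63 normalized reads in the maturing zone and 153.29 in the base, a 4.56-fold loss with an FDR of 0.000239 in the authors' deposited table. Lower calls were made for 33.8% of all H3K9ac regions and 14.3% of all H3K4me3 regions in the same tables.

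The LG1 regions were near the middle of the range in the base and among the weakest in the maturing zone. By H3K9ac signal, 1.31% of all regions lay below the LG1 region in the maturing zone, and 44.8% in the base. By H3K4me3 signal the shares were 8.72% in the maturing zone and 42.2% in the base. By the fold in the authors' deposited table, 702 of the 43734 H3K9ac regions (1.61%) had a loss at least as large as that of LG1. For H3K4me3 it was 1503 of the 32908 regions (4.57%).

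The pair of LG1 regions overlapped by 430 bp, which is 64.8% of the H3K9ac region and 56.2% of the H3K4me3 region. The nearest H3K9ac regions given to other genes lay 48987 bp to the left and 31830 bp to the right. The labels and tables used here give no gene model on this build, so whether a region covers a promoter, exon or intron is not stated; the assignment to LG1 is the authors' next gene.

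At LG2 the regions did not move together. Of the 5 H3K9ac regions of the gene pair 4 were called in either direction, beside 66.8% of all H3K9ac regions, and of the 3 H3K4me3 regions 3 were called, beside 25.6% of all. The 4 H3K9ac regions span 8479 bp of chromosome 3, and by position regions 1 and 2 were higher in the maturing zone, region 3 was not called and region 4 was lower. Both H3K4me3 regions, which lie over the first and second H3K9ac regions, were higher in the maturing zone.

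The first H3K9ac region of LG2 (chromosome 3, 176845267 to 176845873) had 144.75 normalized reads in the maturing zone and 73.78 in the base. The authors' deposited table gives it a 1.96-fold gain with an FDR of 8.55e-06. The second (176846583 to 176847822), the widest at 1240 bp, had 186.87 reads in the maturing zone and 133.75 in the base, a 1.40-fold gain with an FDR of 0.0154 in the authors' deposited table. Higher calls were made for 33.0% of all H3K9ac regions. At or above the folds of these regions lay 20.2% and 29.7% of all H3K9ac regions.

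H3K9ac region 3 of LG2 (176850727 to 176851487) had 59.27 normalized reads in the maturing zone and 69.44 in the base, with an FDR of 0.438 in the authors' deposited table. Region 4 (176853053 to 176853745) had 89.95 reads in the maturing zone and 123.74 in the base, a 1.38-fold loss with an FDR of 0.0265 in the authors' deposited table. Gaps of 709, 2904 and 1565 bp separate the 4 regions in order, so regions 2 and 3 lie farthest apart. To the right of region 4, the next H3K9ac region of another gene starts after 7847 bp.

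H3K4me3 at LG2 showed the larger gains of the pair of marks. The first region (176845152 to 176845971) had 55.22 normalized reads in the maturing zone and 24.67 in the base, a 2.24-fold gain with an FDR of 0.037 in the authors' deposited table. The second (176846543 to 176848210, 1668 bp) had 207.09 reads in the maturing zone and 68.82 in the base, a 3.01-fold gain with an FDR of 0.000353 in the authors' deposited table. Higher calls were made for 11.3% of all H3K4me3 regions, and 10.3% and 6.58% of regions had folds at or above these values.

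The first and second H3K9ac regions of LG2 lay wholly inside its H3K4me3 regions, covering 74.0% and 74.3% of them, and regions 3 and 4 overlapped none. Across the table, 13512 of 43734 H3K9ac regions (30.9%) overlapped no H3K4me3 region. Higher calls made up 50.4% and lower calls 29.4% of those, while among the overlapping regions the shares were 25.3% higher and 35.8% lower. The called LG2 regions ran against the more frequent call in each class, with both overlapping ones higher and region 4, which overlaps none, lower.

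Having 4 H3K9ac regions is uncommon: 400 of 34146 genes with a region (1.17%) had at least as many. For H3K4me3, 2637 of 29827 genes (8.84%) had at least 2 regions, as LG2 did. Among the 400 genes, 145 (36.2%) had both a higher and a lower H3K9ac region, as LG2 did. These counts rest on the authors' next gene, and how far each region lies from LG2 is not given.

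**Figure D2:**
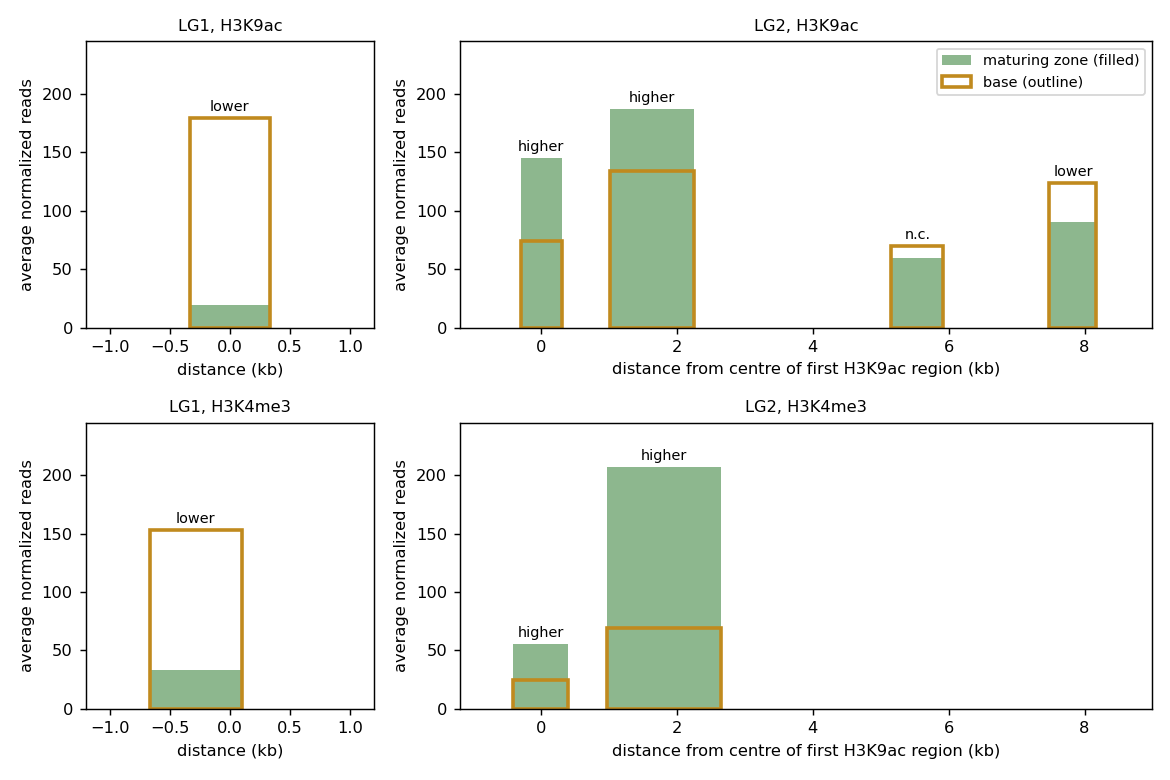
Histone-mark regions of LG1 (left) and LG2 (right), drawn at their true width against the distance in kb from the centre of the first H3K9ac region of each gene; heights are the authors' average normalized reads, filled for the maturing zone and outlined for the base, and n.c. means not called at an FDR of 0.05. At LG1 both marks are lower in the maturing zone (19.33 against 179.29 for H3K9ac), and at LG2 regions 1 and 2 are higher and region 4 is lower.

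**Figure D3:**
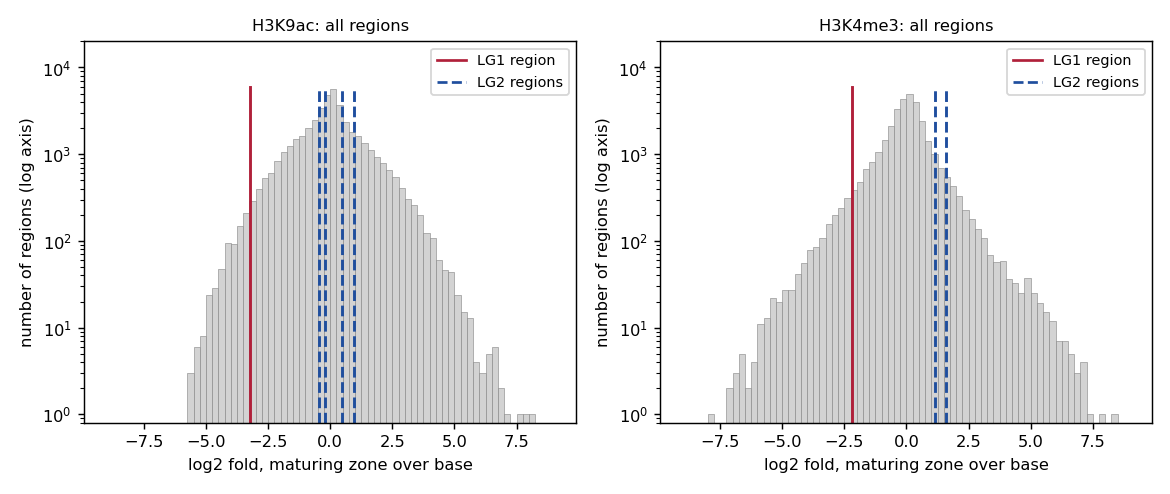
Number of regions (log axis) by log2 fold, maturing zone over base, for all H3K9ac and all H3K4me3 regions, with LG1 as a solid line and the LG2 regions as dashed lines. LG1 stands at -3.21 for H3K9ac and -2.19 for H3K4me3, in the left tail, while the LG2 regions lie between -0.46 and 0.97 for H3K9ac and at 1.16 and 1.59 for H3K4me3.

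The readouts were then set side by side by gene, using the calls in the authors' deposited table and, for each mark, the region with the highest signal summed over zones. LG1 was lower in the maturing zone in transcripts, H3K9ac and H3K4me3, as were 1862 of 27153 genes with both marks (6.86%). LG2 was higher in both marks with no transcript call, as were 1216 of those genes (4.48%). Of genes with a lower H3K4me3 call, as LG1 had, 55.6% also had a lower transcript call. Of genes with a higher one, as LG2 had, 45.2% had a higher transcript call. For H3K9ac, where LG1 and LG2 had the same calls, these shares were smaller, at 33.0% and 29.4%. Among all genes tested here by edgeR, a different gene set and test, 15.8% were lower and 13.5% higher.

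The genes whose pattern over the 4 libraries lay closest to LG1 were sought among 5068 genes within 1 log2 unit of its mean level, by Euclidean distance of centred log2 CPM. They were GRMZM5G876811, GRMZM2G388753, GRMZM2G070448, GRMZM2G096475 and GRMZM2G169121, at distances of 0.377 to 0.648. The closest, GRMZM5G876811, had 0 and 3 reads in the maturing zone and 148 and 146 in the base. For LG2, among 7707 genes, they were GRMZM2G079365, GRMZM2G114707, GRMZM2G049057, GRMZM2G178533 and GRMZM2G149894, at 0.132 to 0.226. The closest, GRMZM2G079365, which RefSeq names bZIP110, had 318 and 125 reads in the maturing zone and 191 and 139 in the base. None of these 10 genes was called, with edgeR adjusted p from 0.0627 to 0.141. They were chosen for values close to those of LG1 or LG2, which were themselves not called. The lack of calls thus follows from the choice and is no separate result.

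Other genes of the ligule and leaf boundary were taken from a list of 11, of which 8 passed the count filter. Of these 8, 4 fell in the maturing zone and 0 rose, against 15.8% lower and 13.5% higher among all genes tested. Their median log2 difference was -3.94, beside -0.13 for all genes, and a gene that passed only through its base reads had to differ. RS2 (GRMZM2G403620), a MYB factor that represses KNOX genes, had 9 and 21 reads in the maturing zone against 1550 and 2498 in the base, a log2 difference of -5.53 ± 1.34 (edgeR adjusted p = 0.0341). LBL1 (GRMZM2G020187), which acts in the making of trans-acting small RNAs, differed by -5.78 ± 0.86 (edgeR adjusted p = 0.0143).

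DL1 (GRMZM2G088309), a YABBY gene of the leaf midrib, differed by -4.89 ± 1.30 and GRMZM2G102218 by -2.99 ± 0.83, with edgeR adjusted p of 0.0425 and 0.0468. The DL1 call was lost without base B (edgeR adjusted p = 0.0893), without maturing zone A (0.175) and with DESeq2 size factors (0.055). The GRMZM2G102218 call was lost without base B (0.245), maturing zone A (0.138) or maturing zone B (0.164), and with DESeq2 size factors (0.0554). The kinase gene LGN (GRMZM2G134382) and the KANADI gene MWP1 (GRMZM2G082264) had log2 differences of -1.25 ± 0.88 and -0.86 ± 0.84, with edgeR adjusted p of 0.328 and 0.477. MWP1 stood at 0.062 without base B, and LGN was called under library totals (-2.49, edgeR adjusted p = 0.0388).

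The KNOX genes were read almost only in base A. LG3 (GRMZM2G087741) had 0 and 0 reads in the maturing zone against 138 and 9 in base A and B, at least 23.3-fold lower over the zone against a floor of 3 reads (edgeR adjusted p = 0.0556). That bound rested on base A, and against base B alone it was 4.63-fold. LG3 was called under library totals (edgeR adjusted p = 0.00782), without a count filter (0.000418), without maturing zone B (0.0384), without base B (0.0022) and in DESeq2's test (0.005), and had too few reads to be tested without base A. KN1 (GRMZM2G017087) had 8 and 6 reads in the maturing zone against 169 and 2 in the base (edgeR adjusted p = 0.47). GN1 and LG4 had too few reads to be tested: base A held 39 and 89 of them and base B 1 and 5, while BAD1 had 0 reads in all 4 libraries. LG1 and LG2 thus had their reads in both base libraries, and these KNOX genes mainly in one.

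Of the 11 listed genes, 5 had H3K9ac regions, with 6 of 9 regions lower, 2 higher and 1 not called in the maturing zone, beside 33.8% lower and 33.0% higher among all H3K9ac regions. Of 10 H3K4me3 regions at 6 of these genes, 5 were lower, 0 higher and 5 not called, beside 14.3% lower and 11.3% higher among all H3K4me3 regions. The strongest H3K9ac region of RS2 had 51.08 normalized reads in the maturing zone and 480.28 in the base, a 9.40-fold loss in the authors' deposited table, close in size to the 9.28-fold loss at LG1. KN1, LG3, DL1 and GRMZM2G102218 had no region of either mark.

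**Figure D4:**
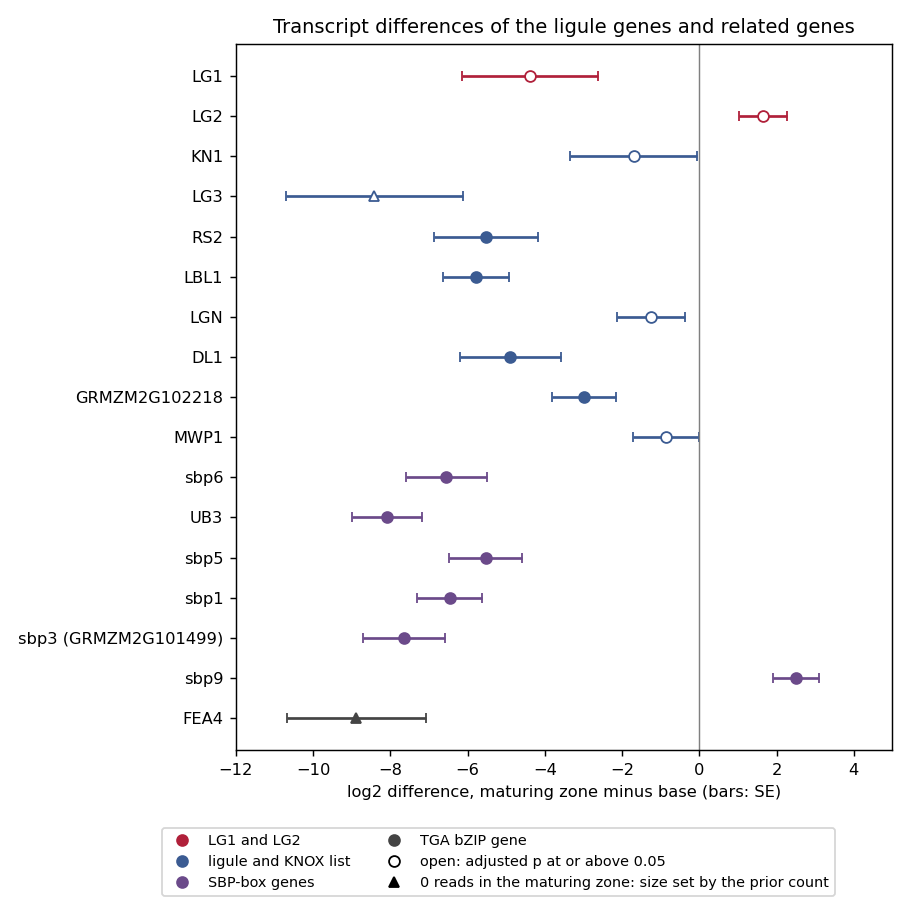
Log2 transcript differences, maturing zone minus base, with SE bars, for LG1, LG2, the tested genes of the ligule and KNOX list, and called SBP-box and TGA bZIP genes; filled symbols passed an edgeR adjusted p of 0.05, open symbols did not, and triangles had 0 reads in the maturing zone, so that the prior count sets their size. LG1 lies at -4.38 among genes lower in the maturing zone, and LG2 lies at 1.65.

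**Figure D5:**
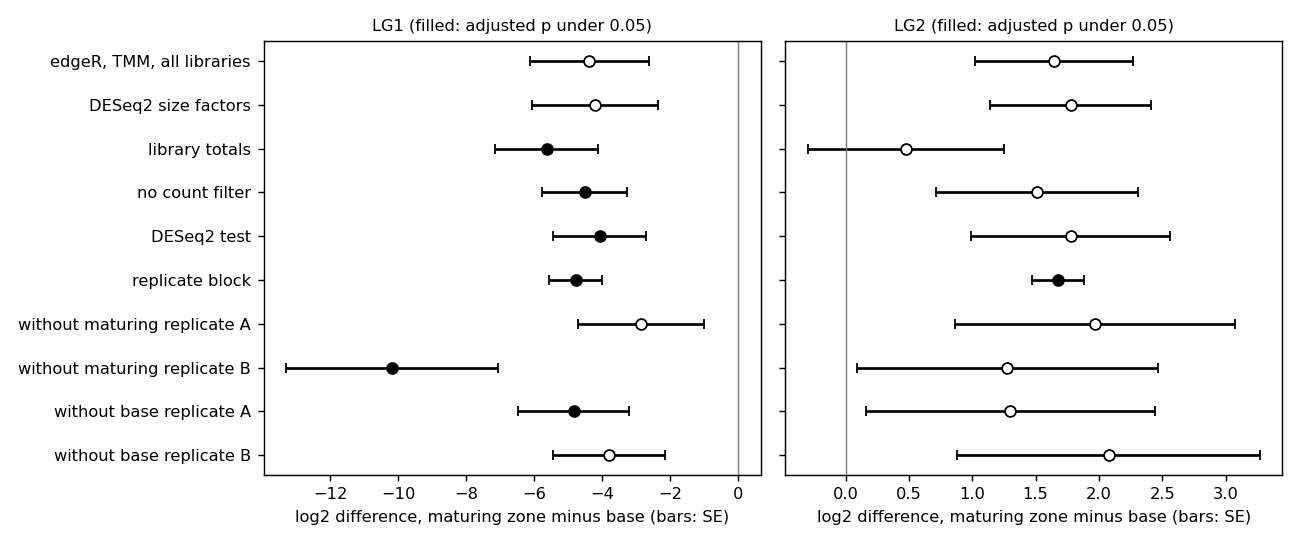
Log2 differences of LG1 (left) and LG2 (right) with SE bars under each processing setting, filled where the adjusted p was under 0.05. LG1 stays below 0 in every setting, from -10.18 to -2.87, and LG2 stays above 0, from 0.47 to 2.08. LG1 passed the count filter through its base reads alone, so its constant direction is no separate result.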

How the data were processed

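The transcript table holds whole-number exon read counts that the authors deposited for libraries A and B of each zone, and RPKM per library, per the file headers. Per the file headers, the ChIP tables hold the authors' average normalized read signal per zone and region, a signed fold change (read here as a score) and an FDR-corrected p-value; the header writes the fold as base over maturing zone, but positive folds went with higher maturing zone averages. Per the submitters' processing notes, CASAVA 1.8.2, Trimmomatic 0.32, DiffBind 1.10.0, edgeR and B73 RefGen_v3 were used; the aligner, counter, peak caller and strand setting were not given in the sources used here. Antisense or near-identical genes may therefore share reads. Labels call the replicates biological.

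Counts were tested here with edgeR 4.0.16 in R 4.3.3: filterByExpr with a minimum count of 10, TMM, a quasi-likelihood test without covariates, Benjamini-Hochberg adjustment over 26787 genes, calls under 0.05. SE is the log2 difference over the root of its F. DESeq2 1.42.0 served as an alternative. ChIP regions were called at a deposited FDR under 0.05 and not retested, since no replicate values are given. Names of 18986 features were matched in RefSeq (Zm-B73-REFERENCE-NAM-5.0), whose coordinates were not used. Similar patterns used a prior count of 2 and 5 genes each. Named genes were LG1, LG2, the ligule list, up to 5 called family genes per direction and the 5 similar genes. One gene of the ligule list is not reported here and was left out of its counts. Members and lists were chosen with earlier results of these data known.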

Additional observations from a re-analysis of the deposited data

How the results depend on the processing

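LG1 kept its direction in all alternatives and was called under library totals (-5.63), without a count filter (-4.52), in the DESeq2 test (-4.08) and with the replicate block, that is, the library letter as a term (-4.78, edgeR adjusted p = 0.000582); DESeq2 size factors gave -4.2, not called. Leaving out 1 library gave -10.18 to -2.87. LG1 passed the count filter through its base reads alone, so its kept direction is no separate result. LG2 was called only with the replicate block (1.67, edgeR adjusted p = 0.000112) and ranged from 1.28 to 2.08 with 1 library left out. With the replicate block 76.0% of all genes tested were called, against 29.2% without it, so these calls set neither gene apart. More genes were also called lower by DESeq2 (20.2%) and with scaling by library totals (31.0%) than by the TMM-scaled edgeR test (15.8%). The LG1 calls in those settings carry the same limit. Dropping the count filter gave 13.5% lower. Letters correlated between zones (r = 0.803 over 26787 genes, not independent replicates), but the labels do not say that a letter marks shared plants. The LG1 minus LG2 value of -6.02 ranged from -11.45 to -4.83 with 1 library left out.

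Of the ligule list, 2 of 8 genes fell with DESeq2 size factors, beside 13.8% of all genes tested. It was 6 of 10 without a count filter (13.5% of all genes) and 7 of 8 with the replicate block (40.4%). Without maturing zone A fewer ligule genes were called than with all 4 libraries. Of 21 SBP-box genes 11 fell and 0 rose under library totals (31.0% and 9.51% of all genes). With the replicate block 13 fell and 3 rose (40.4% and 35.6%). The SBP-box calls also changed when 1 library was left out. The 1 TGA bZIP gene tested was called lower in every setting with all 4 libraries, and the call was lost without maturing zone A. With 0 reads in the maturing zone it could only come out lower. MWP1 ranged from -1.91 to 0.062 with 1 library left out, the highest without base B. At a deposited FDR under 0.01, 1 H3K9ac region of the gene pair was higher and 1 lower, and 1 H3K4me3 region was higher and 1 lower. With an FDR under 0.05 and at least 2-fold asked, 0 H3K9ac regions were higher and 1 was lower. For H3K4me3, 2 regions were higher and 1 was lower at that cut-off. The shares of all regions at these stricter cut-offs were not counted here, so these counts do not set the gene pair apart. Limiting regions to those within 5 kb of the gene was not run, because the tables give no distance. LG1 levels in the maturing zone rest on 4 reads in all.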

Other observations

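Most called genes of the SBP-box family, to which LG1 belongs, fell in the maturing zone. Of 23 further gene features that RefSeq or the list names as SBP-box genes, 21 were tested. GRMZM2G126827 and GRMZM2G156621, both listed under the single RefSeq gene sbp12, were not. Of the 21 tested, 7 fell, 1 rose and 13 were not called, beside 15.8% lower and 13.5% higher among all genes. Their median log2 difference was -1.51, beside -0.13 for all genes. A gene that passed the count filter only through its base reads had to differ, so neither the count nor the median sets the family apart. UB3 (GRMZM2G460544) had 3 and 1 reads in A and B of the maturing zone against 1042 and 1037 in the base, a log2 difference of -8.08 ± 0.90 (edgeR adjusted p = 0.013). The genes sbp3 (GRMZM2G101499), sbp6, sbp1 and sbp5 differed by -7.65, -6.55, -6.47 and -5.53. The gene sbp9 rose by 2.50 ± 0.60 (edgeR adjusted p = 0.0327), a call lost without maturing zone A (0.114), without base B (0.15) and under library totals (0.206).

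Of 30 H3K9ac regions at 18 of these genes, 17 were lower, 6 higher and 7 not called in the maturing zone, beside 33.8% lower and 33.0% higher among all regions. Of 24 H3K4me3 regions at 17 genes, 10 were lower, 0 higher and 14 not called, beside 14.3% lower and 11.3% higher. UB3's strongest H3K9ac region had 50.62 normalized reads in the maturing zone and 643.02 in the base, a 12.7-fold loss in the authors' deposited table. FEA4 (GRMZM2G133331), a bZIP gene of the TGA group and the only other one matched, had 0 and 0 reads in the maturing zone against 62 and 71 in the base, at least 21.1-fold lower over the zone against a floor of 3 reads, or 14.2-fold against base A and 36.5-fold against base B alone (edgeR adjusted p = 0.0299, and 0.112 without maturing zone A). With 0 reads in the maturing zone, FEA4 passed the count filter through its base reads alone and had to come out lower. Its call therefore does not set it apart. BAD1 (GRMZM2G110242), a TCP gene listed at 0 reads, had an H3K9ac region with 270.58 normalized reads in the maturing zone and 114.28 in the base, a 2.37-fold gain in the authors' deposited table.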
